A study of Rattus norvegicus with 10 samples.

Results

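Sik1 (ENSRNOG00000001189) and Btg2 (ENSRNOG00000003300) are 2 of the 30560 genes counted in the prefrontal cortex (PFC) of rats treated with MK-801. Both were selected by the study from the genes that passed its p-value and fold change criteria in these same rats and that were also predicted, for the human miRNA, as targets of miR-25-3p. Their difference between the groups therefore chose them, and it is given below as a description, with no test. The RNA was taken from 10 male wild-type SD rats, 5 in the control group and 5 in the MK-801 group, and 1 library was sequenced per rat. All rats were 21 days old at the start and were habituated for 1 week. The control group then received saline (0.9%) and the MK-801 group MK-801 at 0.2 mg/kg, by intraperitoneal injection for 2 weeks. MK-801 blocks the NMDA receptor, and its repeated administration is used as a drug model of schizophrenia-like behaviour. PFC tissue holds many cell types, so that more RNA per cell and more cells of a type cannot be told apart in the values below.

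Sik1 encodes salt-inducible kinase 1, a relative of the AMP-activated protein kinase. It is switched on by the kinase LKB1 and phosphorylates the CRTC co-activators, which keeps them out of the nucleus and so lowers transcription driven by CREB. The Sik1 gene is itself induced by CREB, which makes the kinase part of a feedback loop. Btg2 encodes a small protein of the BTG/TOB family that joins the CCR4-NOT deadenylase to mRNAs, shortens their poly(A) tails and restrains proliferation. Both genes belong to the early response genes, whose transcription rises within minutes of neuronal activity or growth factor signals. A miRNA such as miR-25-3p acts in the other direction, since it pairs through its seed with sites in the 3′ UTR of an mRNA and lowers the stability and translation of that mRNA.

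The study listed the pair, with Twist1 and Egr2, as changed genes that are also predicted targets of miR-25-3p. It then followed Sik1 and Twist1, and gives no further measurement of Btg2. For Sik1 it also cites a report of direct binding by this miRNA in hepatocellular carcinoma. As a miRNA pairs with its targets through the seed, the mature sequences that share the seed are shown first. In the RefSeq miRNA table of the GRCr8 assembly, 5 of the mature rat miRNA names carried the seed of miR-25-3p, from 6 loci. The capitals mark the seed, bases 2 to 8 from the 5′ end.
rno-miR-25-3p: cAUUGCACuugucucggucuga
rno-miR-92a-3p: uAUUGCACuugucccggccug
rno-miR-92b-3p: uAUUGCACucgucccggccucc
rno-miR-32-5p: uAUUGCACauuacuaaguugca
rno-miR-363-3p: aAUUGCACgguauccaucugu
The miR-25-3p sequence lies at chr12:22156652-22156673 on the minus strand (GRCr8). Its hairpin and those of miR-93 and miR-106b lie within the bounds of Mcm7, a subunit of the DNA replication helicase. Counted base by base from the 5′ end, miR-92a-3p was identical to miR-25-3p at 18 positions and miR-363-3p at 8. A site in an mRNA that pairs with the whole seed reads GTGCAAT, and this heptamer is shared by all members of the seed group, so that a seed match alone does not tell which of them would bind. The 3′ UTR sequences of Sik1 and Btg2 were not used here, and the level of miR-25-3p was not analysed here. The study's abstract credits its RNA-seq data with a lower level of this miRNA, for which its results give no RNA-seq value. By quantitative PCR in separate groups of rats, the study also reports a lower level of this miRNA in the PFC after the drug. With the same method it reports higher Sik1 mRNA in the PFC, a difference that did not reach significance. In the caudate putamen of those rats it reports less miR-25-3p and more Sik1 mRNA, both significant. It reports all of these changes as reversed by risperidone. Those rats were killed after 2 further weeks of pellet feeding that followed the injections, a phase not described for the rats sequenced here. The study's Western blots of the PFC gave more total SIK1 protein and more LKB1. The level of phosphorylated SIK1 did not differ significantly among its groups, and the ratio of phosphorylated to total SIK1 was lower after the drug. These measurements were not analysed here.

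Since Sik1 is known as a CREB-induced gene, the promoter windows of the pair were read next, from 250 bases before to 50 bases after the RefSeq start site. The capitals mark a match to the cAMP response element (CRE), the motif known to bind CREB, in full for Btg2 and over 7 of its 8 letters for Sik1.
Sik1, chr20:9958597-9958896, minus strand, GRCr8: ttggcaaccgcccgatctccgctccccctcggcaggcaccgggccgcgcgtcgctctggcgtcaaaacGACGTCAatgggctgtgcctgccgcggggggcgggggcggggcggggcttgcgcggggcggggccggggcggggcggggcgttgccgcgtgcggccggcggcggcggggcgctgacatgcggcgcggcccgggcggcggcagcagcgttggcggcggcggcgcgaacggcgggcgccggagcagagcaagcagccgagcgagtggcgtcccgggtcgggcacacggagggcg
Btg2, chr13:48087641-48087940, minus strand, GRCr8: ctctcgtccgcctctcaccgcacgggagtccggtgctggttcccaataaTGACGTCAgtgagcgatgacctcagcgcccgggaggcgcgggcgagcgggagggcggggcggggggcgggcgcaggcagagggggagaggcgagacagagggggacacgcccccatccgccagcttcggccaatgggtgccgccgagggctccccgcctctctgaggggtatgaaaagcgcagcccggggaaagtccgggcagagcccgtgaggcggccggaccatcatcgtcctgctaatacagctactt
The Btg2 window held the full CRE, TGACGTCA, once, at -201 to -194 from the start site. The full CRE reads the same on both strands and was present in 1.83% of the 33469 promoter windows of the same length. The Sik1 window held no full CRE, but held the heptamer GACGTCA at -182 to -176, where the octamer differs from the full CRE by T1C, counted from 1 at its 5′ end. This heptamer, searched on both strands, was present in 3.22% of all windows, which include those with the full CRE. The shorter core TGACG, which lies inside both longer motifs, was matched at 2 positions in each window and in 21.2% of all windows. In Btg2 these matches, at -201 to -197 and -198 to -194, are the 2 strands of the full CRE and thus 1 site. In Sik1 the matches lie apart, with 1 inside the heptamer and the other at -191 to -187 on the minus strand, outside it. The AP-1 motif TGANTCA was matched in neither window, and in 7.33% of all windows. Both windows were rich in G and C, with 81.3% in Sik1 and 69.7% in Btg2, against a median of 51.7% over all windows. The shares of windows with a motif were taken over all windows and were not matched for G and C content. The RefSeq start site used for Sik1 lies 83 bases inside the outermost end of the gene, so that the annotated gene reaches further upstream than the site used. A match is a description of the letters and not a binding site shown in these rats, and the motifs were chosen with the sequences known.

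**Figure D1:**
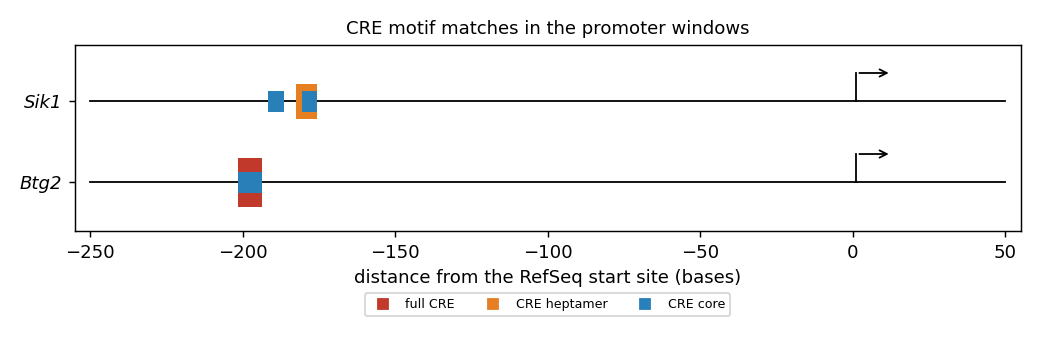
Matches of the CRE motifs in the promoter windows of Sik1 and Btg2, with the distance from the RefSeq start site in bases on the x axis, the arrow at the start site, and 1 coloured block per match, shorter motifs drawn inside the longer ones that hold them. The CRE heptamer of Sik1 lies at -182 to -176 and the full CRE of Btg2 at -201 to -194.

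The libraries held between 24334589 and 30824539 counts per rat, and the ranges of the groups overlapped. The share of counts held by the 10 most abundant genes was 8.27% ± 1.81 (SD, n = 5) for control rats and 6.66% ± 0.471 (SD, n = 5) for MK-801 rats, and the ranges of this share overlapped as well.

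Sik1 was higher in 4 of the 5 MK-801 rats than in any control rat. In the control group, replicates 1 to 5 had 182, 181, 188, 152 and 231 counts of Sik1. In the MK-801 group, replicates 1 to 5 had 175, 370, 466, 366 and 482 counts. The control rats thus lay close together and 4 MK-801 rats lay well above them, whereas MK-801 replicate 1 lay at the control level. Scaled to a common library size (CPM, with TMM factors), Sik1 had 6.35, 7.37, 6.62, 5.96 and 7.79 CPM in control replicates 1 to 5. The MK-801 replicates 1 to 5 had 5.83, 14.8, 17.4, 14.7 and 15.5 CPM. After scaling, MK-801 replicate 1 was the lowest of all 10 rats, and the other MK-801 rats all lay above control replicate 5, the highest control rat. The mean was 6.82 ± 0.750 CPM (SD, n = 5) for the control rats and 13.6 ± 4.51 CPM (SD, n = 5) for the MK-801 rats. When MK-801 replicate 1 was left out, the latter was 15.6 ± 1.29 CPM (SD, n = 4). With 152 to 482 counts, the counting error of a single rat was between 4.55% and 8.11%, small beside the gap between the rats that were high and those that were low.

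Btg2 showed the same split, with a wider spread. Control replicates 1 to 5 had 400, 377, 330, 346 and 638 counts of Btg2. The MK-801 replicates 1 to 5 had 377, 1339, 1153, 1186 and 856 counts. As for Sik1, MK-801 replicate 1 lay within the control range, and control replicate 5 was the highest control rat. In CPM, control replicates 1 to 5 had 14.0, 15.3, 11.6, 13.6 and 21.5, and the MK-801 replicates 1 to 5 had 12.6, 53.4, 43.2, 47.5 and 27.6. MK-801 replicates 2, 3 and 4 formed the top of the range, MK-801 replicate 5 lay between them and control replicate 5, and MK-801 replicate 1 was lower than all control rats except replicate 3. The mean was 15.2 ± 3.77 CPM (SD, n = 5) for the control rats and 36.9 ± 16.6 CPM (SD, n = 5) for the MK-801 rats, and with MK-801 replicate 1 left out the latter was 42.9 ± 11.1 CPM (SD, n = 4). The counting error of Btg2 was between 2.73% and 5.50% per rat.

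**Figure D2:**
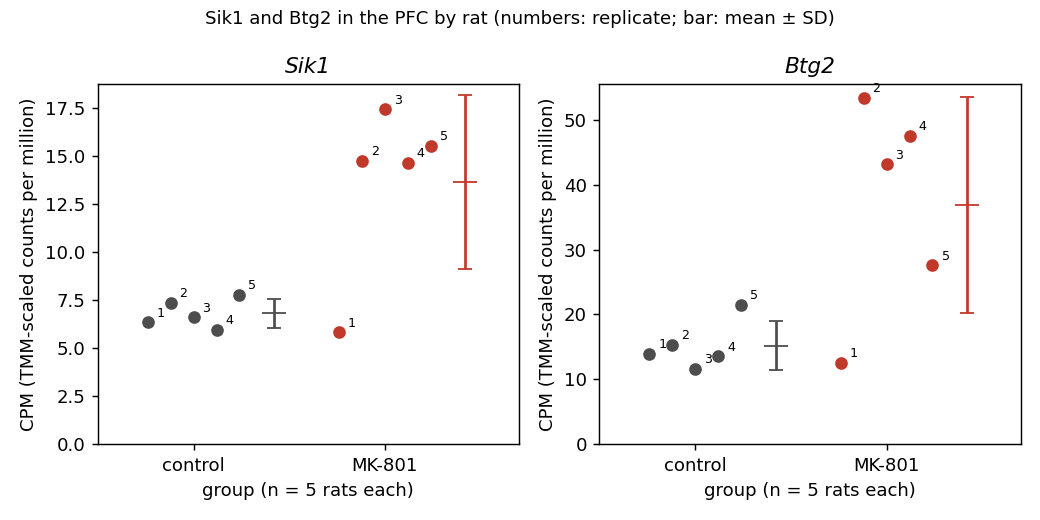
CPM of Sik1 (left) and Btg2 (right) in each rat by group, with the replicate number beside each point and the mean ± SD (n = 5) as a bar beside the points. MK-801 replicate 1, at 5.83 CPM of Sik1 and 12.6 CPM of Btg2, sits at the control level, and the other 4 MK-801 rats lie above every control rat for both genes.

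The fold changes placed the pair on either side of the study's criterion in edgeR, and both genes over it in DESeq2. In edgeR, the log2 fold change of Sik1 was 1.00 with a standard error of 0.23, and unrounded, at 0.998729, it was just under the criterion of 1. That of Btg2 was 1.27 with a standard error of 0.32, which is a fold of 2.42. In DESeq2, the tool named in the study's methods, Sik1 had a log2 fold change of 1.00411, just over the criterion, and Btg2 one of 1.28. The study's criteria ask for a p-value under 0.05, read here as unadjusted, together with a log2 fold change of 1 or more in size. They called Btg2 alone in edgeR and both genes in DESeq2. For genes higher in the MK-801 group, these criteria called 0.167% of all 16137 genes tested in edgeR and 0.230% of the 23893 tested in DESeq2. Nothing is read from these shares, since the same contrast chose the pair. Among genes higher in the MK-801 group at such a p-value, the log2 fold change nearest to the criterion in edgeR was 1.01483 inside it and 0.999952 outside it, both in other genes. Counted from the highest fold change of all genes tested, Btg2 was in place 18 and Sik1 in place 34. The groups overlapped in both genes, through MK-801 replicate 1, whereas 1.10% of all genes tested were higher in every MK-801 rat than in every control rat.

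The side on which Sik1 fell depended on small choices, and that of Btg2 did not. Across the 7 other settings that kept all rats, the log2 fold change of Sik1 ranged from 0.89 with limma-voom to 1.01 without a filter on low counts, and was at least 1 in 3 of them. Btg2 ranged from 1.11 to 1.28 in the same settings and was at least 1 in all 7. With each rat left out in turn, Sik1 ranged from 0.89 without MK-801 replicate 3 to 1.19 without MK-801 replicate 1, and was at least 1 in 3 of 10 fits. Btg2 ranged from 1.10 without MK-801 replicate 2 to 1.49 without MK-801 replicate 1, and was at least 1 in 10 of 10. Both genes stayed higher in the MK-801 group in all of these settings. The standard errors were also smaller without MK-801 replicate 1, at 0.10 against 0.23 for Sik1 and 0.20 against 0.32 for Btg2.

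**Figure D3:**
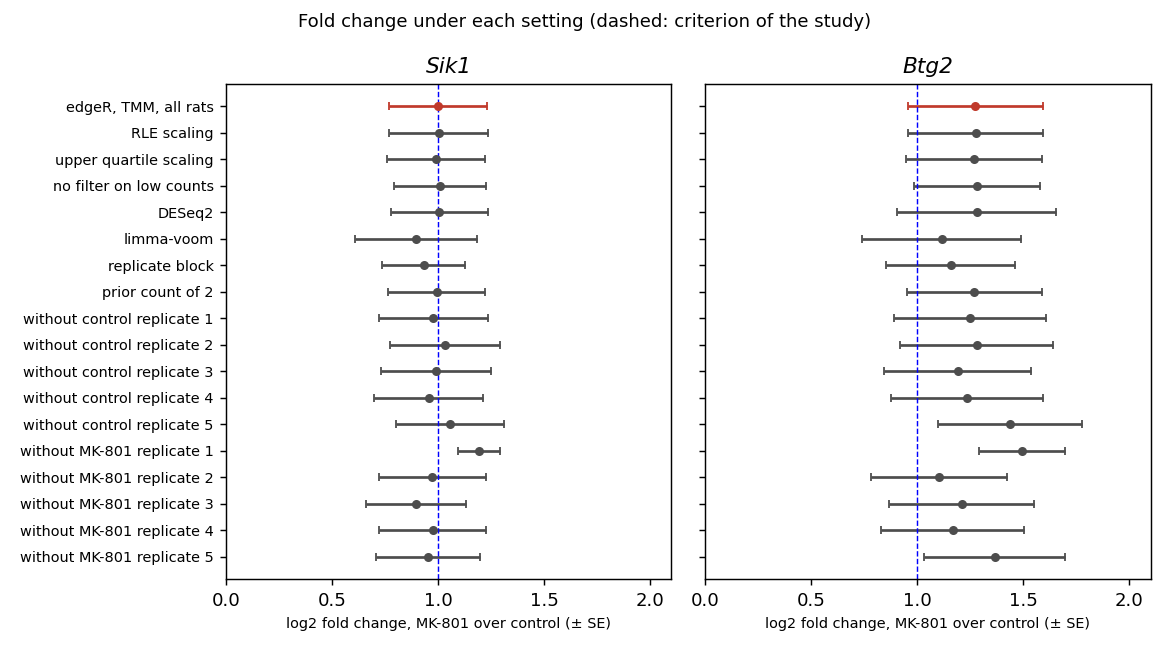
Log2 fold change of the MK-801 group over the control group (x axis, ± SE) for Sik1 (left) and Btg2 (right) in each setting, with the fit of edgeR on all rats in red and the study's fold change criterion as a dashed line. Sik1 lies between 0.89 and 1.19 and straddles the line, and Btg2 lies between 1.10 and 1.49, to the right of it.

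The rats of the MK-801 group spread more widely than the control rats in both genes. On the log2 CPM scale, the SD of Sik1 was 0.16 in the control group and 0.64 in the MK-801 group, and that of Btg2 was 0.33 and 0.85 (n = 5 each). With MK-801 replicate 1 left out, the SD of the MK-801 group was 0.12 for Sik1 and 0.42 for Btg2 (n = 4), close to the control SD in Sik1 and nearer to it in Btg2. In edgeR, the biological coefficient of variation was 0.252 for Sik1, against 0.153 for the trend of all genes at its abundance. For Btg2 it was 0.341, against 0.117 for the trend. Btg2 was thus the more variable member of the pair in both groups, with or without that rat.

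The count of Btg2 per count of Sik1 compares the pair within each library, free of the scaling. Between rats, it was 2.20, 2.08, 1.76, 2.28 and 2.76 in control replicates 1 to 5, and 2.15, 3.62, 2.47, 3.24 and 1.78 in the MK-801 replicates 1 to 5. The ranges overlapped, and MK-801 replicate 5 had nearly the ratio of the lowest control rat although both of its genes were high. As the files give no gene lengths, this ratio does not say which mRNA was the more abundant.

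Whether the pair varied together among rats of the same group was not used to choose them, and was tested. The deviations of log2 CPM from the group mean had a Pearson's r of 0.862 over the 10 rats (two-sided exact permutation test within the groups, p = 0.0416, adjusted p = 0.181 over the 5 relations computed). Spearman's rho was 0.564 (same exact permutation test, p = 0.117, adjusted p = 0.196). The relation did not pass the correction, and its size depended on MK-801 replicate 1. This rat deviated from its group mean by -1.12 in Sik1 and by -1.38 in Btg2, on the log2 scale, and the largest deviation of another rat in either gene was 0.70. When this rat was left out, r was 0.338 (same exact permutation test, p = 0.385). Without MK-801 replicate 1 and control replicate 4, which were farthest from the median deviation of Sik1, r was 0.496. This value kept the deviations from the group means of all 10 rats, so that it also holds the offset of the remaining MK-801 rats. It is not comparable with 0.338, for which the group means were taken again. The rats with the largest positive deviations also differed between the genes, since this was MK-801 replicate 3 for Sik1 and MK-801 replicate 2 for Btg2.

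**Figure D4:**
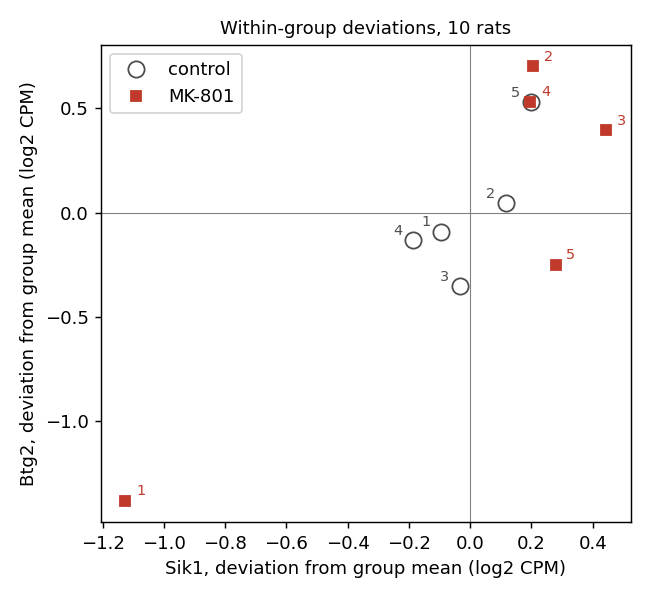
Deviation of Sik1 (x axis) and Btg2 (y axis) from the group mean in log2 CPM, 1 point per rat with its replicate number, for the control group and the MK-801 group. MK-801 replicate 1 stands alone at the lower left, at -1.12 and -1.38, and the remaining 9 rats form a loose cloud, with r = 0.338 when computed without it. Control replicate 5 and MK-801 replicate 4 nearly coincide.

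The other relations of this family concerned the library. The deviation of Sik1 had an r of -0.377 with the log2 total count (two-sided exact permutation test, p = 0.563, adjusted p = 0.563; Spearman's rho = -0.0303, p = 0.958, adjusted p = 0.958). That of Btg2 had an r of -0.608 with it (two-sided exact permutation test, p = 0.106, adjusted p = 0.181; Spearman's rho = -0.612, p = 0.108, adjusted p = 0.196). Without the pair of rats farthest from the median, control replicate 2 and MK-801 replicate 4, r was -0.345 for Sik1 and -0.629 for Btg2. Here the deviations from the group means of all 10 rats were kept. Single rats moved these values: that of Sik1 turned to 0.189 without MK-801 replicate 1, and that of Btg2 passed the correction, at -0.773, without control replicate 5 (two-sided exact permutation test, adjusted p = 0.0434). With the percentage of counts in the 10 most abundant genes, r was -0.240 for Sik1 (two-sided exact permutation test, p = 0.150, adjusted p = 0.188; Spearman's rho = -0.491, p = 0.0714, adjusted p = 0.196) and -0.329 for Btg2 (two-sided exact permutation test, p = 0.109, adjusted p = 0.181; Spearman's rho = -0.321, p = 0.325, adjusted p = 0.406). Without control replicates 3 and 5, the rats farthest from the median share, these became -0.384 and -0.0497, again with the group means of all 10 rats. With all 10 rats, none of these relations passed the correction, which does not show that depth had no part in the values.

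Genes with the most similar pattern within the groups were sought among the 16067 other genes with a mean of at least 10 counts, by the same r over 10 rats. All of these genes share the same libraries, so that the values are descriptions. The gene closest to Sik1 was ENSRNOG00000008424 (r = 0.983), and the gene closest to Btg2 was ENSRNOG00000064442 (r = 0.972). The mean of the first was 91.4 ± 1.57 CPM (SD, n = 5) for control rats and 90.1 ± 7.27 CPM (SD, n = 5) for MK-801 rats, with a log2 fold change of -0.02. The second had 20.1 ± 0.737 CPM (SD, n = 5) and 21.0 ± 1.84 CPM (SD, n = 5). With MK-801 replicate 1 left out, their r was 0.855 and 0.953. Btg2 was in place 48 among the genes most like Sik1, and Sik1 in place 25 among those most like Btg2. When that rat was left out, these places were 3607 and 2896. An r of at least 0.8 with both members was found in 38 genes, and without MK-801 replicate 1 in 0. Of these 38 genes, 21 had a positive and 17 a negative log2 fold change, with a median of 0.05 against -0.01 for all genes compared, and 7 (18.4%) had a log2 fold change of at least 1 against 0.193% of all genes compared. These genes were picked by their resemblance to the pair, mainly in MK-801 replicate 1, and no test is attached to them.

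The count table lists genes by Ensembl identifier alone, and the reference table used here pairs none of the 30560 identifiers with a symbol. The names Sik1 and Btg2 were taken as given for their identifiers and could not be checked against the files, and the promoter windows were matched by these names. The other SIK and CRTC genes, Creb1, the BTG/TOB and CCR4-NOT genes, Mcm7, the remaining genes the study proposed as targets (Twist1 and Egr2), other early response genes and the marker genes of cortical cell types were therefore not analysed here, and the tissue label was not checked against markers.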

How the data were processed

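RNA of the PFC of 10 rats was measured by RNA-seq. According to the methods and the labels, the authors aligned reads with HISAT2 (2.2.1) and SAMtools (1.15.1) to mRatBN7.2 and counted them on Ensembl release 105 genes with featureCounts (Subread 2.0.1). The strand setting and the library kit are not given in the sources used here, so reads of overlapping or antisense genes could be shared. The values deposited are raw counts per gene and rat. Each column belonged to 1 rat, and no pair of rats within a group was alike within sampling noise (chi-square per degree of freedom of at least 8.36 over 20 pairs).

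Counts were analysed in R 4.3.3 with edgeR 4.0.16: filterByExpr (minimum count 10, minimum total 15) kept 16137 genes, TMM scaling was applied, and the quasi-likelihood test was fitted across all genes, with Benjamini-Hochberg adjustment. Standard errors were derived from each gene's fold change and F value. Alternatives were DESeq2 1.42.0, limma-voom (limma 3.58.1), RLE and upper quartile scaling, no filter, a prior count of 2 in place of 0.125, the replicate number as a block, and each rat left out. Deviations from group means were compared by an exact permutation test over the 14400 orders of one measure within the groups. The relations with depth and with the top genes' share of counts were recomputed under settings chosen after seeing the data.

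The members and lists were chosen with earlier results of these data known. The genes to be named were the pair, the genes of pathway lists and the genes most like each member, limited to 2 identifiers without a symbol. The pathway lists could not be used, since no identifier was paired with a symbol. Sequences are from RefSeq tables of GRCr8, matched by symbol for both members, a different build from that of the counts.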

Additional observations from a re-analysis of the deposited data

Results flagged for a closer look

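Of the 4 groups of 5 rats examined (Sik1 and Btg2 in each group), 1 had a rat far from the others. In Sik1, the lowest rat of the MK-801 group, replicate 1, was separated from the next by 0.841 of the group's whole range of log2 CPM, above the critical value of 0.71 for 5 samples. It had 5.83 CPM, against 14.7 to 17.4 CPM in the other MK-801 rats. For normally distributed values, chance gives a gap above 0.71 in about 1 of 20 groups, and 4 groups were examined. In Btg2 the same rat was also the lowest of its group, at 0.543 of the range, which did not pass the critical value. Over all 16137 genes tested, MK-801 replicate 1 lay apart at the low end of its group in 111 genes (0.688%), and some rat lay apart, at either end, in 1038 genes of the MK-801 group (6.43%) and in 782 of the control group (4.85%). The reason was not tested.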

How the results depend on the processing

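The log2 fold changes of Sik1 and Btg2 kept their direction and moved by less than the SD between rats in all 17 settings; leaving out each rat gave from 0.89 to 1.19 for Sik1 and from 1.10 to 1.49 for Btg2. The 37 genes by the criteria of the study in edgeR (27 higher, 10 lower) became 337 in edgeR without a filter on low counts (143 higher, 194 lower) and 115 with DESeq2 (55 higher, 60 lower), which also tested more genes, 23893, without that filter, so that the higher genes no longer outnumbered the lower ones in either. By these criteria the study itself reported more higher than lower genes with DESeq2, unlike the count with DESeq2 here. The reason for this difference was not tested. The count in edgeR ranged from 39 to 64 with each rat left out (58 when MK-801 replicate 1 was left out, 64 when replicate 5 of that group was). At an adjusted p-value under 0.05, 0 genes were called in edgeR (2235 at an unadjusted p-value under 0.05), 106 in DESeq2, and from 0 to 12 with each rat left out, all 12 when MK-801 replicate 1 was missing. At an unadjusted p-value, leaving out a rat gave from 1458 (without control replicate 3; 1474 without control replicate 4) to 3280 genes.

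Both groups use the replicate numbers 1 to 5, which were not taken as pairs, since deviations of same-numbered rats correlated above 0.1 in 3 of 5 pairs only. With the replicate block, the log2 fold change was 0.93 for Sik1 and 1.16 for Btg2, and 39 genes met the criteria. With the replicate block, r between the pair was 0.835 (exact permutation test, adjusted p = 0.0208). That between Sik1 and the total count was -0.807 (exact permutation test, adjusted p = 0.0208). Each was computed over 5 differences between same-numbered rats, which were not taken as pairs and include MK-801 replicate 1. The unadjusted p of both, 0.00833 in the same exact permutation test, is the smallest that 5 differences allow. Nothing is read from these values. With each rat left out, r between the pair ranged from 0.338 without MK-801 replicate 1 to 0.936 without MK-801 replicate 5, and did not pass the correction in any of the 10. That between Sik1 and the total count ranged from -0.586 to 0.189, reversing when MK-801 replicate 1 was left out. That between Btg2 and the total count ranged from -0.773 to -0.488, and passed the correction without control replicate 5, at -0.773 (exact permutation test, adjusted p = 0.0434). Where neither fewer rats nor another filter was the setting, the cause was not tested. The planned count of pathway genes was not run, as identifiers and symbols could not be paired. The counting error of the pair was at most 8.11% per rat.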
